A study of Homo sapiens with 38 samples.

Results

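Sp1 is a ubiquitous transcription factor whose 3 zinc fingers bind GC boxes, short GC-rich elements found in the promoters of many genes without a TATA box. Before genome-wide maps existed, Sp1 binding had been described at a small set of promoters that control nucleotide and polyamine supply, the entry into the cell cycle, growth signalling and blood vessel growth. The 9 genes described here are long-known targets of this kind, namely TK1, TYMS, ODC1, CDKN1A, CDKN1B, CCND1, MYC, HRAS and VEGFA, of 20020 protein-coding gene symbols in GENCODE 44. They were chosen by name, and a peak was assigned to a gene when it shared at least 1 bp with the annotated gene or with the 5000 bp to either side of any of its transcript starts. By this rule 19 of the 27085 peaks in 19 lists lay at 6 of the 9 genes, and no list held a peak at CDKN1A, CDKN1B or CCND1. Of all protein-coding genes, 65.7% had a peak in no list.

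The peaks come from CUT&RUN, in which an antibody directs a nuclease to the tagged protein so that nearby DNA is released and sequenced. All groups were U2OS cells, a human osteosarcoma line, with a V5-Halo tag knocked in at the endogenous Sp1 gene (CTRL, the parental line). The other lines were derived from it and also carried a doxycycline-inducible construct with SNAPf and FLAG tags at the AAVS1 locus. The parental line is a single edited clone, in which the tagged Sp1 stayed in place beside every construct. Every line was kept in doxycycline at 1 μg/ml, first for 36 h and then, once sorted, for another 36 h. Line and antibody were combined in 19 ways, each with 2 replicates, which gives the 38 samples. Mouse anti-FLAG was applied to the parental line and to the lines with Sp1 WT, the Sp1 DNA-binding domain (Sp1 DBD), the Sp1 DBD Mutant with a truncated DBD, the EWS IDR-Sp1 DBD chimera, the CTCF DBD, the Sp1 IDR-CTCF DBD and Sp1 IDR-LacI chimeras, LacI and SNAPf-NLS, a nuclear tag with no DNA-binding domain. In these names IDR stands for an intrinsically disordered region, that of Sp1 being called its activation domain in the sample labels. Rabbit anti-FLAG was applied to the parental line only. Rabbit and mouse anti-V5, which read the endogenous Sp1, were used in the parental, Sp1 WT, Sp1 IDR-LacI and Sp1 IDR-CTCF DBD lines. Each list joins both replicates, so it has no replicate of its own, and the read numbers behind it were not analysed here. The spread is therefore given as the −log10 p-values of the peak in the first and second replicate that entered the list, and which labelled culture came first is not known.

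To show what Sp1 meets at these promoters, the sequence around the Sp1 WT FLAG summit, or just before the main transcript start where no list held a peak, was read from hg38 on the strand of the gene. Capitals mark GC boxes, GGGCGG on either strand. Bases of untranslated regions were left out, except for 1 site at TK1. Promoter entries from RefSeq (GRCh38.p14) were matched for 6 of the 9 genes and were the same as hg38 in all 6, and those of CCND1, MYC and VEGFA were not matched. At TK1 the stretch chr17:78187234-78187354 (minus strand) holds the summit, and a further box lies in the first exon of another TK1 transcript at chr17:78187159-78187188. At ODC1 (chr2:10448328-10448497, minus strand) and HRAS (chr11:535577-535747, minus strand) it ends at the base before the main start. At TYMS (chr18:658471-658571, plus strand) it lies in an intron and is shown because it is the single Sp1 WT FLAG summit of the set with no box within 100 bp. CDKN1A (chr6:36678604-36678709, plus strand) and CDKN1B (chr12:12717258-12717367, plus strand) are shown as promoters that hold GC boxes and no peak.
TK1: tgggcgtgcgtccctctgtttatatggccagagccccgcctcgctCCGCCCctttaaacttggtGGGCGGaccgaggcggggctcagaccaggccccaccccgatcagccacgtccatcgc
TK1 exonic box: cctcccacgaggGGGCGGgctgcggccaaa
ODC1: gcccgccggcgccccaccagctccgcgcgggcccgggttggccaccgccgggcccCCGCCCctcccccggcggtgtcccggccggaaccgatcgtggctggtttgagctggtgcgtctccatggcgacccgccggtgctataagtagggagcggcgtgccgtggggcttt
HRAS: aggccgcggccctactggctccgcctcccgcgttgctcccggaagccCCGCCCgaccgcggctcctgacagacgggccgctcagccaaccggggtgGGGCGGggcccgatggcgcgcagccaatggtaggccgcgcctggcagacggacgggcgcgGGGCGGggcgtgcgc
TYMS: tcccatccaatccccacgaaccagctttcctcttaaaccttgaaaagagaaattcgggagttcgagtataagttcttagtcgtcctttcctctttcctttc
CDKN1A: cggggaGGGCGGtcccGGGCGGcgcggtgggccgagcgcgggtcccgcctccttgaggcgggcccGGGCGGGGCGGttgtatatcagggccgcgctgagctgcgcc
CDKN1B: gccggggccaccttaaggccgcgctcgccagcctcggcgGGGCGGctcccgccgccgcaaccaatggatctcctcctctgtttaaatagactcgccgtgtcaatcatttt

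Most of the set had a peak in the Sp1 WT FLAG list, 6 of the 9 genes (TK1, TYMS, ODC1, MYC, HRAS and VEGFA), against 27.5% of all protein-coding genes by the same rule. The Sp1 DBD list held peaks at 3 of the 9 (TK1, ODC1 and MYC), against 18.5% of all genes, and the EWS IDR-Sp1 DBD list at MYC alone, 1 of 9 against 13.3%. Each of the 8 anti-V5 lists held a peak at TK1, and the rabbit anti-V5 list of the Sp1 IDR-CTCF DBD line also held one at TYMS. The shares of all genes with a peak in the anti-V5 lists were 12.1% (rabbit) and 11.4% (mouse) in the parental line, 10.1% and 8.07% in the Sp1 WT line, 13.0% and 10.2% in the Sp1 IDR-LacI line, and 13.0% and 8.57% in the Sp1 IDR-CTCF DBD line. A count of 1 in 9 genes is thus near the level of all genes, and the count of 2 in 9 rests on a TYMS peak low in its list. None of the 9 genes had a peak in the remaining anti-FLAG lists, in which few genes of any kind did. These shares were 2.8% for the CTCF DBD, 0.824% for Sp1 IDR-CTCF DBD, 0.005% for Sp1 IDR-LacI, 0.00999% for SNAPf-NLS, 0% for LacI and 0% for the Sp1 DBD Mutant, and 0.005% (mouse) and 0.0649% (rabbit) for the parental line. The 9 genes were picked by name with earlier results of these data known, and there are no replicate lists. These counts are therefore a description and were not tested.

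**Figure D1:**
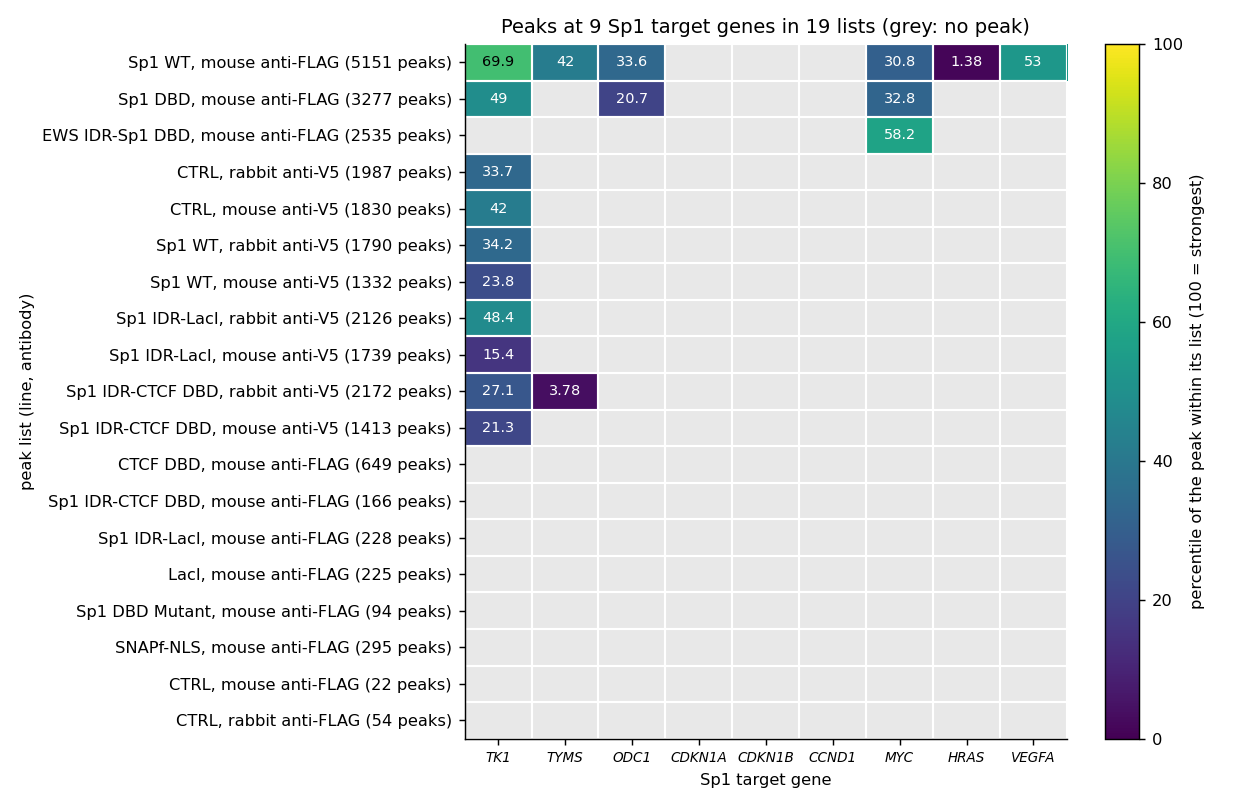
Peaks at the 9 Sp1 target genes (columns) in the 19 lists (rows, with the number of peaks in each). Colour and number give the percentile of the peak by −log10 p-value within its own list, 100 being the strongest, and grey cells hold no peak. TK1 is filled in 10 lists, MYC in 3, TYMS and ODC1 in 2, HRAS and VEGFA in 1, and CDKN1A, CDKN1B and CCND1 in none.

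The lists differ in length, and the Sp1 WT FLAG list, with 5151 peaks, is the longest. When the Sp1 WT, Sp1 DBD and EWS IDR-Sp1 DBD lists were each reduced to the 2535 highest ranked peaks (ties kept), they held peaks at 2 genes (TK1 and VEGFA), 2 genes (TK1 and MYC) and 1 gene (MYC), against 15%, 14.8% and 13.3% of all genes. Of the 6 genes with a Sp1 WT FLAG peak, 3 also had a Sp1 DBD peak, where 55.1% of all genes with a Sp1 WT FLAG peak did. A peak of the EWS chimera was found at 1 of the 6, against 39.6%, and a parental V5 peak at 1 of the 6, against 37.3% (rabbit) and 35.8% (mouse). Of all genes with a Sp1 WT FLAG peak, 47.0% had no peak in any anti-V5 list, as was the case for ODC1, MYC, HRAS and VEGFA.

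**Figure D2:**
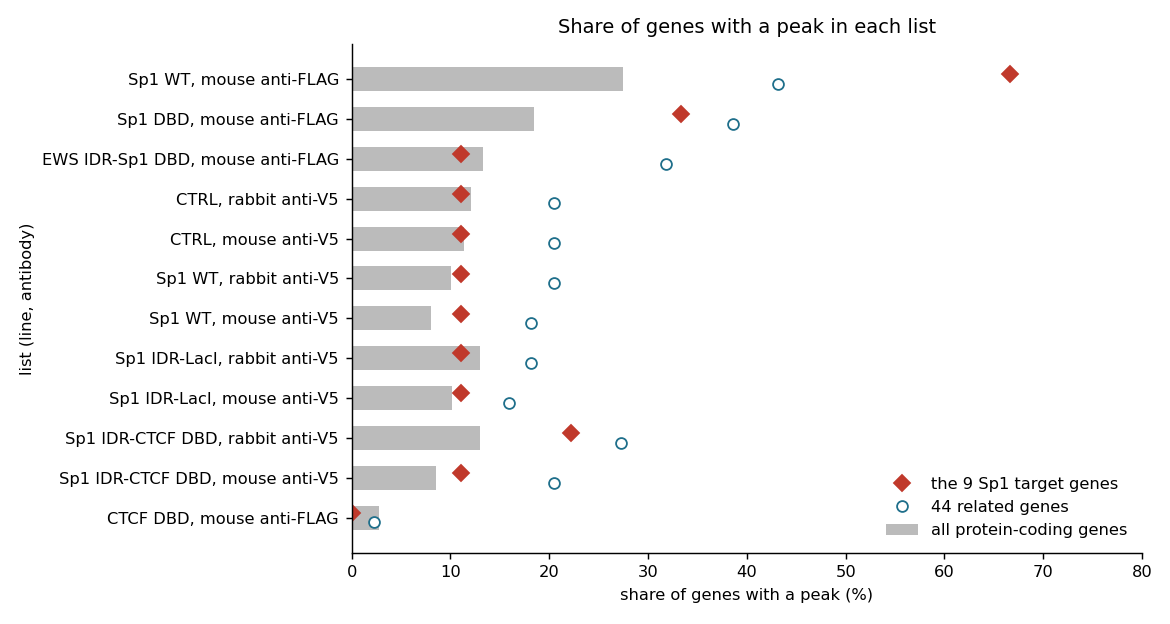
Share of genes with a peak (percent) in 12 lists, the 11 with a peak at any of the 9 genes and the CTCF DBD list. Bars are all 20020 protein-coding genes, diamonds the 9 Sp1 target genes and open circles 44 genes of the same pathways. The diamond lies furthest from its bar in the Sp1 WT FLAG list (6 of 9 against 27.5%) and close to it in most anti-V5 lists.

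The peaks were not among the strongest of their lists. A percentile here is the share of peaks in the list whose −log10 p-value was no higher, so that the middle peak of any list is at about 50. In the Sp1 WT FLAG list the 6 member peaks lay at percentiles from 1.38 to 69.9, with a median of 37.8. By this merged value only TK1 and VEGFA were above the middle of the list. Ranked by the second replicate alone, VEGFA was below it at 45.1 and MYC above it at 54.1. The second replicate had the larger value at all 6, as it did at 96.9% of the peaks in that list.

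TK1 encodes the cytosolic thymidine kinase of the salvage route to thymidine nucleotides. It was the gene of the set with a peak in the most lists, 10 of 19, and these were Sp1 WT, the Sp1 DBD and all anti-V5 lists, but not the EWS chimera. In the Sp1 WT FLAG list the peak (chromosome 17, 78186287 to 78187589) had −log10 p-values of 25.8 and 54.6 in the replicates and rank 1552 of 5151. With the Sp1 DBD the values were 15.9 and 21.1 and the rank 1671 of 3277. The peak is thus in the upper part of the first list and near the middle of the second. In the EWS chimera list the nearest peak lay 33.2 kb from the gene.

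In the parental line, the TK1 peak had values of 16 and 37.3 with rabbit anti-V5 and of 21.1 and 62.2 with mouse anti-V5. In the line with induced Sp1 WT, they were 13.7 and 20.6 (rabbit) and 14.5 and 29.1 (mouse). In the Sp1 IDR-LacI line, they were 18.2 and 37.2 (rabbit) and 11.8 and 23.7 (mouse). In the Sp1 IDR-CTCF DBD line, they were 12.9 and 32.9 (rabbit) and 14.3 and 21.6 (mouse). Every V5 list thus held the peak with a larger value in the second replicate. The same was true of 78.5% to 99.8% of all peaks in these lists. Within these lists TK1 lay at percentiles from 15.4 (Sp1 IDR-LacI, mouse) to 48.4 (Sp1 IDR-LacI, rabbit), both from the same line, with a median of 30.4. Ranked by the first replicate alone the percentiles ran from 15.4 to 48.4 and by the second alone from 21.4 to 68.1. In 1 list, rabbit anti-V5 of the Sp1 IDR-CTCF DBD line, the replicates alone placed TK1 at 26.6 and 68.1, and no order of the lines could be read from these values. Of all protein-coding genes, 5.12% had a peak in all 8 anti-V5 lists, and of those with a Sp1 WT FLAG peak 15.9% did.

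All TK1 summits lay before the main transcript start. The merged summits in the 10 lists lay from −287 to −168 bp, counted from the main transcript start with negative values before it. Those of the single replicates lay between −300 and −93 bp. The replicate summits were 2 bp apart in the Sp1 WT FLAG list and 5 to 192 bp apart in the anti-V5 lists. The widest gap was in the rabbit list of the Sp1 IDR-LacI line, where the median over all peaks was 30 bp. AFMID, which encodes an enzyme of tryptophan breakdown, starts at −306 bp from the main start of TK1 on the other strand, inside the peak in all 10 lists. The peak thus covers a promoter that both genes share, and it was assigned to both. In the 4 mouse anti-V5 lists the transcript start nearest to the merged summit was that of AFMID, and in the other 6 lists it was a TK1 start. Single replicates did not keep this split. With rabbit anti-V5 their summits lay at −254 and −183 bp (parental) and −136 and −300 bp (Sp1 WT). They lay at −93 and −285 bp (Sp1 IDR-LacI) and −284 and −152 bp (Sp1 IDR-CTCF DBD). With mouse anti-V5 they lay at −290 and −285 bp (parental) and −195 and −299 bp (Sp1 WT). No difference between the antibodies could be read from the nearest start. Within 100 bp of the merged summit 2 or 3 GC boxes were found in every list. At the first replicate's own summit, the rabbit anti-V5 lists of the Sp1 WT and Sp1 IDR-LacI lines had 1. Leaving out AFMID, the genes with the most similar percentiles over the 19 lists were SMIM1, with a mean absolute difference of 4.66 percentile points, and EARS2, with 5.7. Lists in which neither gene had a peak counted as no difference, which lowers these means.

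**Figure D3:**
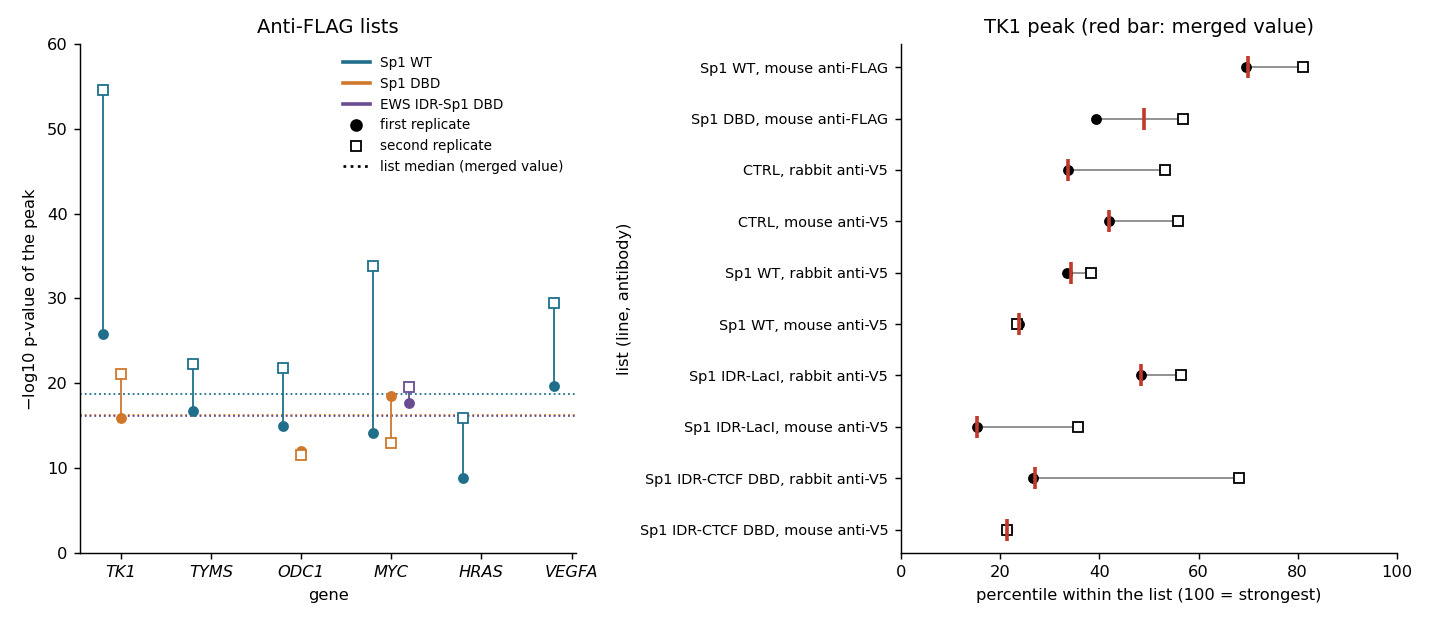
Left, −log10 p-value of each anti-FLAG peak at the 9 genes in the first (filled circle) and second (open square) replicate, coloured by construct, with the median merged value of each list as a dotted line. Right, percentile of the TK1 peak in 10 lists by each replicate alone and by the merged value (red bar). The replicates differ most for TK1 and MYC in the Sp1 WT FLAG list, and the V5 percentiles of TK1 overlap between lines.

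TYMS encodes thymidylate synthase, which makes thymidylate from deoxyuridylate. In the Sp1 WT FLAG list its peak (chromosome 18, 657425 to 658972) had −log10 p-values of 16.7 and 22.3 and rank 2987 of 5151. The peak spans the start of TYMS and that of the antisense RNA gene TYMSOS, but its summit lay in an intron of TYMS, 868 bp past the main start, with replicate summits at 882 and 854 bp. In the rabbit anti-V5 list of the Sp1 IDR-CTCF DBD line a weaker peak (values 9.04 and 12.3, rank 2091 of 2172) had its summit at 693 bp, 4 bp from a TYMSOS start. TYMS is thus the gene of the set whose peaks sat furthest past the main start. No GC box lay within 100 bp of the Sp1 WT FLAG summit, as in the printed stretch, and the nearest was centred 116.5 bp away. A RefSeq promoter entry covers 250 bases before the start and 50 from it. That of TYMS held no GC box, while 62.7% of 14473 protein-coding promoter entries did. A box centred 78.5 bp past the main start lay outside the entry. Within 1000 bp of the main start TYMS had 4, the same as the median gene. The whole Sp1 WT FLAG peak held 4.

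ODC1 encodes ornithine decarboxylase, the first enzyme of polyamine synthesis. Its Sp1 WT FLAG peak (chromosome 2, 10448152 to 10449234) had values of 14.9 and 21.8 and rank 3419 of 5151, and its Sp1 DBD peak values of 12 and 11.5 and rank 2600 of 3277. No other list held a peak at ODC1, and in 8 of the lists the nearest one lay 137 kb away. In the Sp1 WT FLAG list the summit was at −70 bp, with the replicates at −44 and −97 bp. In the Sp1 DBD list the replicate summits were 477 bp apart, at −32 and −509 bp, on either side of the start of the divergent RNA gene ODC1-DT at −327 bp. ODC1 had the densest GC boxes of the set, with 17 within 1000 bp of its main start, more than 97.8% of genes had, and 15 inside each of its peaks.

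CDKN1A and CDKN1B encode p21 and p27, inhibitors of the cyclin-dependent kinases that drive entry into S phase. No list held a peak at CDKN1A, and the nearest Sp1 WT FLAG peak lay 129 kb away, near the start of STK38. Its promoter entry nevertheless held 4 GC boxes, at −104, −94, −45 and −40 bp, where 14.6% of promoter entries held 4 or more. No list held a peak at CDKN1B, but the Sp1 WT FLAG list held one just outside the rule, 2.74 kb past the end of the gene and 7774 bp from its nearest start (−log10 p-value 21.6, rank 2094), with the summit 282 bp from a start of APOLD1. The parental rabbit anti-V5 list held a weaker one there (9.56, rank 1904 of 1987). The CDKN1B promoter entry held 1 GC box, at −71 bp, and 3 CCAAT elements, the sequence that NF-Y binds. CCND1 encodes cyclin D1, the partner of CDK4 and CDK6 in G1, and its nearest Sp1 WT FLAG peak lay 20.8 kb away at the start of LTO1, with rank 5101 of 5151. It had 5 GC boxes within 1000 bp of its main start, against a median of 4 over 19061 genes. In these lists a GC box near the start therefore stood beside genes with a peak and genes without, and the lack of a peak says only that none passed the authors' threshold in both replicates.

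MYC encodes a transcription factor that drives growth and proliferation. It was the only gene of the set with a peak in all 3 FLAG lists of constructs with the wild-type Sp1 DBD, and it had none in the anti-V5 lists, whose nearest peaks lay 434 kb or more from the gene. Its −log10 p-values were 14.1 and 33.8 with Sp1 WT (rank 3568 of 5151), 18.5 and 13.0 with the Sp1 DBD (rank 2204 of 3277), and 17.7 and 19.6 with the EWS chimera (rank 1061 of 2535). The values of the 3 constructs overlapped. The merged percentiles were 30.8, 32.8 and 58.2 in the same order, but by the first replicate alone they were 30.8, 50.8 and 49.5 and by the second alone 54.1, 22.9 and 48.8, so that no order of the constructs held in both replicates. The same 3 lists and no others held a peak at 2.64% of protein-coding genes. The MYC peaks were broad, from 1793 to 2602 bp (chromosome 8, 127734124 to 127736725 for Sp1 WT), longer than 93% to 97.1% of the peaks in their lists. The replicate summits were 1215 bp apart with Sp1 WT (at −1408 and −193 bp), 310 bp apart with the Sp1 DBD (−820 and −1130 bp) and 773 bp apart with the EWS chimera (−988 and −215 bp). A single binding position at MYC could therefore not be read from these lists. Counted at each replicate's own summit, a GC box lay within 100 bp in the second but not the first replicate of Sp1 WT, in the first but not the second of the Sp1 DBD, and in both of the EWS chimera.

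HRAS encodes a RAS GTPase that passes growth factor signals to the RAF kinases. Its peak, in the Sp1 WT FLAG list alone (chromosome 11, 535571 to 535954), was near the end of that list, with values of 8.77 and 15.9, rank 5081 of 5151 and an irreproducible discovery rate of 0.0848 between the replicates, just inside the limit of 0.1. It was also short, 384 bp, shorter than all but 3.63% of the peaks. Its summit was nonetheless close to the main start, at −71 bp with the replicates at −56 and −87 bp. The summit had 5 GC boxes within 100 bp, the nearest centred 1.5 bp away, and 14 lay within 1000 bp of the main start, more than in 94.9% of genes. The weakest Sp1 WT FLAG peak of the set was thus the one with the most GC boxes within 100 bp of its merged summit. That window runs past the edge of the called peak, however. The boxes centred 6.5 and 21.5 bp past the main start were not wholly inside the peak. Without them the HRAS window had 3, as in the printed stretch, below the 4 at VEGFA. Within 50 bp the HRAS summit had 1, as did TK1, ODC1 and MYC in that list. Over the whole peak HRAS held 5, not all of them the boxes near the summit, against 15 at ODC1 and 13 at VEGFA.

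VEGFA encodes the main growth factor for blood vessels. It too had a peak in the Sp1 WT FLAG list alone (chromosome 6, 43769523 to 43772345), with values of 19.7 and 29.5. Its rank was 2423 of 5151, the second highest of the set by the merged value. By the second replicate alone VEGFA lay at percentile 45.1, below MYC at 54.1. The peak was 2823 bp long, longer than 97.8% of the list, and its replicate summits were 884 bp apart, at −449 and 435 bp. The merged summit at −7 bp lies between them and had 4 GC boxes within 100 bp, whereas the summit of the first replicate had 0 and that of the second had 1. Peaks in the Sp1 WT FLAG list and in no other were found at 6.33% of protein-coding genes.

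**Figure D4:**
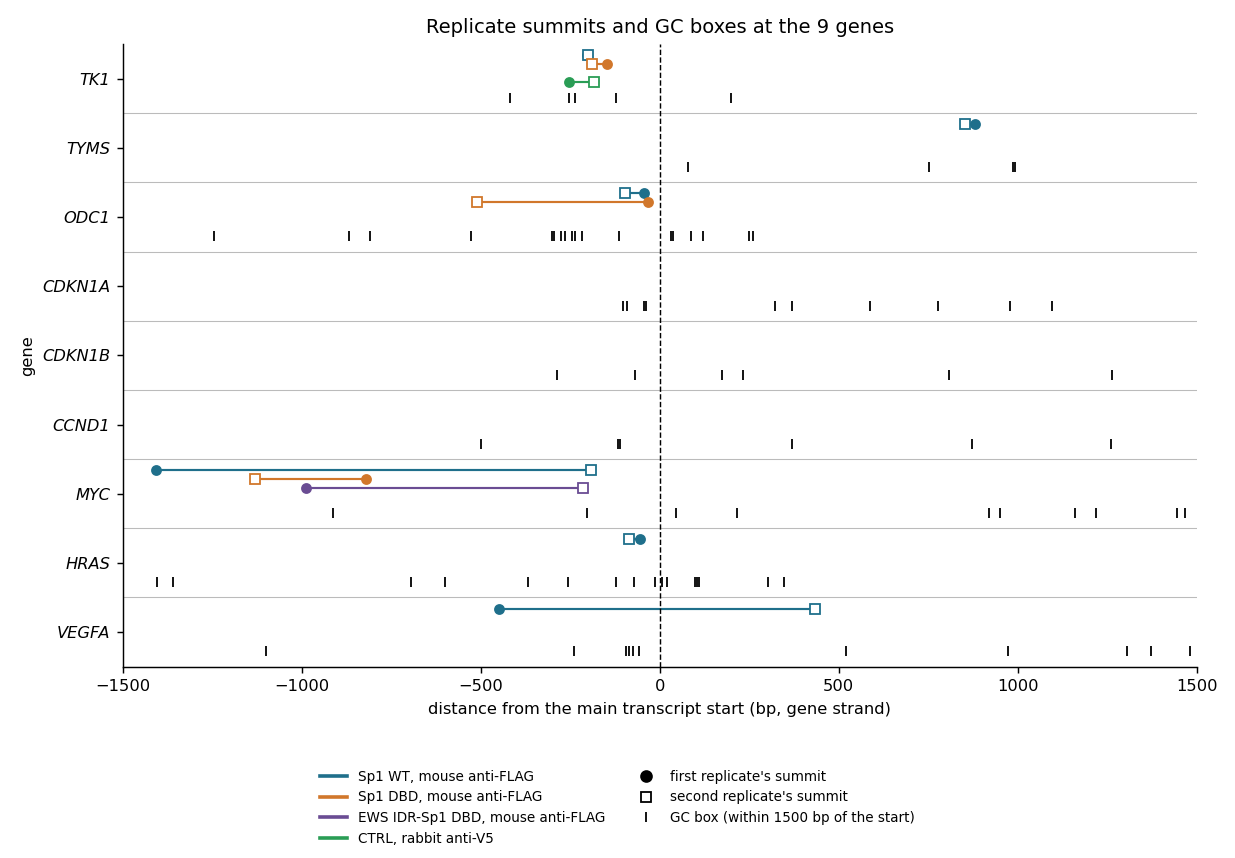
Summits of both replicates (circle, first; square, second; joined by a line) and GC boxes (black ticks) by distance in bp from the main transcript start, for the 3 FLAG lists with peaks at the 9 genes and the parental rabbit anti-V5 list, within 1500 bp. The replicate summits lie close together at TK1, TYMS and HRAS and far apart at MYC and VEGFA, and CDKN1A, CDKN1B and CCND1 show GC boxes without summits.

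Over the 6 Sp1 WT FLAG peaks, 5 had a GC box within 100 bp of the merged summit, against 70.2% of all peaks in the list and 54.6% of windows of the same length around main transcript starts. In the Sp1 DBD list 3 of 3 did, against 75.2%, in the EWS chimera list 0 of 1, against 72.7%, and in the parental lists the TK1 peak did, against 81.4% (rabbit) and 84.4% (mouse). At the summit of the first replicate the count was 3 of 6 for Sp1 WT, against 68.5% of all peaks, and at that of the second 5 of 6, against 71.4%. Summits more than 200 bp apart, as at MYC and VEGFA, were found in 12.1% of the Sp1 WT FLAG peaks. All 19 member peaks held a GC box somewhere, as did 92.6% of all Sp1 WT FLAG peaks. The merged summits of the 19 peaks lay within 270 bp of a transcript start of the gene. The summits of the first and second replicate alone lay up to 611 and 509 bp away. In the Sp1 WT FLAG list 97.2% of merged summits were at the midpoint of the replicate summits.

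The other genes of the same pathways were counted from 7 lists with 44 genes, chosen with earlier results of these data known. Of these, 19 had a Sp1 WT FLAG peak (43.2%, against 27.5% of all genes), 17 a Sp1 DBD peak (38.6%, against 18.5%) and 14 a peak of the EWS chimera (against 13.3%). Between 7 and 12 of the 44 had a peak in a given anti-V5 list, against 8.07% to 13.0% of all genes, and 22 of the 44 had one in no list, against 65.7% of all genes. Among 8 genes of nucleotide supply, 4 had a Sp1 WT FLAG peak, among them DUT (21.4 and 30.0) and DCK (13.8 and 35.6). Among 5 CDK inhibitors, 1 did, CDKN2D (24.5 and 60.1), which also had a peak in 4 anti-V5 lists. Among 7 G1 cyclins and kinases, 4 did, led by CDK2 (83.3 and 104, rank 47), CDK4 (24.7 and 52.0) and CCNE1 (21.8 and 43.9), and CDK2 and CDK4 had a peak in all 8 anti-V5 lists. Of the same genes, 3 of the 5 CDK inhibitors and 3 of the 7 G1 cyclins and kinases had a peak in no list.

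Of 4 genes of the MYC network, MXI1 (16.2 and 28.8) and MAX (11.9 and 24.8) had a Sp1 WT FLAG peak and MYCN and MYCL did not. Of 6 VEGF ligands and receptors, 1 did, VEGFB (9.36 and 26.9), with a peak also in 6 anti-V5 lists, unlike VEGFA. Of 7 genes of polyamine synthesis and its antizymes, 3 did, AZIN2 (15.8 and 29.1), OAZ1 (10.3 and 32.7) and OAZ2 (9.67 and 21.3), and OAZ1 had a peak in all 8 anti-V5 lists where ODC1 had none. Of 7 RAS and RAF genes, 4 did, among them RRAS (53.3 and 96.6, rank 307) and RRAS2 (22.1 and 28.5, rank 1990), both ranked above HRAS. Like the 9 genes, these lists were not tested against the rest.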

How the data were processed

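CUT&RUN was done on 38 samples, with 2 replicates for each of the 19 pairs of line and antibody. Per the study's methods and the submitters' processing notes, the authors used cutadapt 2.6 for trimming, Bowtie2 2.3.5.1 for alignment to hg38, SAMtools 1.9 to drop duplicates and MACS3 (version given as 2.2.7.1) for peaks, with p = 1e-3 and the control replicates merged. Peaks were ranked by p-value, and the limit on the irreproducible discovery rate (here IDR) was 0.1. The authors deposited −log10 p-values for each replicate and a merged one, which was the smaller of the pair in every peak. The score behind the stricter thresholds is the negative log10 of that rate, as the authors deposited it. Read numbers were not analysed here, so no limit from depth is given, and 6 deposited tables of differential regions, the authors' own comparisons, were not used.

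The 9 genes and the lists of related genes were chosen with earlier results of these data known. Gene spans and transcript starts came from GENCODE 44, with the MANE Select start as the main one. No peak ended beyond its hg38 chromosome. Motifs were searched on both strands with pysam 0.24.0, and GGGGCGGGG, which contains GGGCGG, was an alternative. Distances are negative before the main start. All 9 genes are named, with at most 3 related genes a list, those with the highest value in the Sp1 WT FLAG list, and for genes with peaks in at least 6 lists the 2 most alike in percentile. Not every gene so chosen is reported here. Scripts (Python 3.11.15, pandas 2.3.3, NumPy 2.4.6) were tested on simulated data.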

Additional observations from a re-analysis of the deposited data

How the results depend on the processing

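Presence of a peak at the 9 genes did not change when peaks had to lie within 1000 bp of a transcript start or when the summit was used in place of the peak. With the irreproducible discovery rate (IDR) limited to 0.05, HRAS left the Sp1 WT FLAG list (5 genes) and TYMS the anti-V5 lists. At an IDR of at most 0.01, 2 genes were left with Sp1 WT (TK1 and VEGFA, against 15.5% of all genes), 0 with the Sp1 DBD (8.29%) and 0 with the EWS chimera (4.64%), and TK1 stayed in 6 of 8 anti-V5 lists. With equal list lengths, 2 genes were left with Sp1 WT and TK1 again stayed in 6 anti-V5 lists. The median percentile of the Sp1 WT FLAG peaks was 35.1 by the second replicate and, over 2 peaks, 29.3 at an IDR of at most 0.01. That of TK1 in the anti-V5 lists was 45.8 by the second replicate and 3.54 at an IDR of at most 0.01, which removes the weaker peaks of each list. GGGGCGGGG lay within 100 bp of 4 of the 12 summits in the Sp1 WT, Sp1 DBD, EWS chimera and parental anti-V5 lists and of 3 of the 6 of Sp1 WT, against 27.2% of all Sp1 WT FLAG peaks, and GGGCGG at 3 of the 6 summits of the first replicate, a search added after the data were seen. The median distance of the 19 summits from a transcript start was 66.0 bp, 218 bp from the main start, and 82.0 bp for the summits of the first replicate. No paired analysis was possible because each list joins both replicates and no result comes from a test, and for the same reason no list could be made without a replicate. Read numbers were not analysed here, and a gene without a peak is not shown to be unbound.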
